A study of Mus musculus with 14 samples.

Results

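The 10 genes described here carry iron into, through and out of cells, store it, release it from haem, or signal the iron demand of red cell formation: Erfe, Trf, Tfrc, Tfr2, Slc40a1, Slc11a2, Slc25a37, Fth1, Ftl1 and Hmox1. They were matched by symbol among 55335 genes of a mouse RNA sequencing count table, each to 1 row, and 10 of 10 passed the filter on low counts that left 21509 genes for testing. The set was chosen by the measured levels of Erfe and Trf, which were higher and lower in TBI and IgG RIT than in untreated libraries (in CD45 RIT Trf was higher), so every value of theirs against untreated libraries is given as a description, and tests of single members are confined to comparisons between treatments.

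The 14 libraries came from bone marrow of Cdh5 Cre Rosa26 TdTomato mice, a genotype shared by every group, and the sorted cells were negative for lineage markers, negative for CD45 and positive for TdTomato. In these mice the promoter of the endothelial gene Cdh5 drives Cre, which switches on the red fluorescent reporter for good in a cell and its descendants. The groups were untreated mice (n = 4), mice given total body irradiation (TBI, 500 cGy from a caesium source, n = 5), mice given a radiolabelled IgG without a target (IgG RIT, 20 µCi, n = 3) and mice given a radiolabelled antibody against CD45 on blood cells (CD45 RIT, RIT standing for radioimmunotherapy, 20 µCi, n = 2); the title of the series names astatine-211 for the CD45 antibody. Cells of the treated groups were harvested 8 days after treatment. The labels do not say whether the libraries of a group are separate mice, so p-values measure the spread between these samples, which may be technical. Age and sex are not used here.

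Iron travels in plasma bound to transferrin (Trf), which transferrin receptor 1 (Tfrc) takes into the cell. The endosomal transporter DMT1 (Slc11a2) then passes the iron to the cytosol, mitoferrin-1 (Slc25a37) brings it into mitochondria for haem synthesis, ferritin (Fth1 and Ftl1) stores the surplus and ferroportin (Slc40a1) exports it. Erythroblasts, which load themselves with iron to make haemoglobin, secrete erythroferrone (Erfe) in response to erythropoietin; it lowers hepcidin in the liver and so frees stored iron.

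Several of these transcripts carry an iron-responsive element, a hairpin bound by iron regulatory proteins when cells are short of iron: in a 5′ UTR the binding blocks translation, and in the Tfrc 3′ UTR it protects the mRNA. The elements are shown because they are the shared sequence feature through which iron acts on these genes after transcription. GENCODE M21 transcripts (GRCm38) were searched on the transcript strand for C, then 5 stem bases, then CAGTG and a base other than G, then 5 bases that pair back with at least 4 of the 5, G-T pairs allowed. The pattern was found 8 times in 5 of the 10 members and at least once in 1763 of 21901 coding genes (8.05%); a match is a description and no match says only that this pattern is not in the transcript. In the sequences below, 5′ to 3′ in DNA letters, capitals mark CAGTG of the loop.
Tfrc 3′ UTR, chr16:32631219-32631248, plus strand: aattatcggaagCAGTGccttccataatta
Tfrc 3′ UTR, chr16:32631598-32631627, plus strand: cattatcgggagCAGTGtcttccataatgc
Tfrc 3′ UTR, chr16:32631663-32631692, plus strand: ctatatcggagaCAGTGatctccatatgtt
Tfrc 3′ UTR, chr16:32631710-32631739, plus strand: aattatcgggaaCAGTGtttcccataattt
Slc11a2 3′ UTR, chr15:100395152-100395181, minus strand: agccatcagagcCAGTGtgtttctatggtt
Fth1 5′ UTR, chr19:9982732-9982761, plus strand: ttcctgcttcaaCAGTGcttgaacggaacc
Ftl1 5′ UTR, chr7:45459778-45459807, minus strand: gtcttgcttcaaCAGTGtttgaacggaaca
Slc40a1 5′ UTR, chr1:45925464-45925493, minus strand: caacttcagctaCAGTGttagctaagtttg
The Slc11a2 hairpin paired at 4 of 5 stem positions, and the other elements at 5 of 5. Erfe, Trf, Tfr2, Slc25a37 and Hmox1 held no match.

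Total counts were 16412779 to 31077588 per library, so that 3 counts, taken as the smallest readable signal, were worth 0.0785 to 0.215 CPM (counts scaled to the TMM-adjusted library size). The kit used here adds no molecular identifiers, so these floors cover counting error only. Sums over marker lists are in CPM of the total count, without the TMM factor of 0.704 to 1.229 that enters the CPM of single genes. The defining endothelial marker Cdh5 had 0 to 6 counts in any library and 0 in all RIT libraries, and the summed level of 20 endothelial markers was 202 to 252 CPM in untreated, 85.3 to 183 in TBI, 77.3 to 85.8 in IgG RIT, and 142 and 385 in CD45 RIT. The 19 erythroid markers found in the table summed to 11700 to 18200 CPM in untreated, 29600 to 49150 in TBI replicates 1, 3, 4 and 5, 183700 in TBI replicate 6, 144000 to 151000 in IgG RIT, and 194900 and 47420 in CD45 RIT replicates 1 and 2. The 17 stromal markers summed to 3330 to 8740, 1020 to 2390, 399 to 1220, and 33500 and 56300 CPM in the same order of groups. The endothelial label was thus poorly borne out: the erythroid and the stromal sums exceeded the endothelial sum in every library. TBI replicate 6 stood apart from the other TBI libraries. The CD45 RIT libraries correlated at r = 0.673 across genes, against 0.906 to 0.979 within the other groups, and CD45 RIT replicate 2 held at most 3 counts for 6 of the 19 erythroid markers, Klf1 at 0 among them, while it had 46446 counts of Alas2. In such bulk samples fewer cells of a type and less RNA per cell cannot be told apart, and the part of these shifts in the results that follow was not tested beyond the values given.

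Erfe, the erythroid hormone that lowers hepcidin, was low in untreated libraries, with 19 to 118 counts, at 0.497, 3.53, 2.30 and 3.12 CPM. It was at 40.8, 51.1, 59.7, 62.4 and 145 CPM in TBI replicates 1, 3, 4, 5 and 6, and at 69.6, 57.6 and 113 CPM in IgG RIT replicates 1 to 3. Every TBI and IgG RIT library lay above every untreated library, and TBI replicate 6 was the highest of all. CD45 RIT replicate 1 had 45.8 CPM (752 counts), within the TBI range, whereas replicate 2 had 0 counts, which allows up to 0.144 CPM. The untreated mean was 2.36 ± 1.34 CPM (SD, n = 4), the TBI mean 71.8 ± 41.9 CPM (SD, n = 5) and the IgG RIT mean 79.9 ± 28.9 CPM (SD, n = 3). On the log2 scale the fitted differences from untreated were 4.93 for TBI (SE 1.25) and 5.08 for IgG RIT (SE 1.3). The value for CD45 RIT, 3.28, averages a library at the TBI level with a library at 0 and describes neither. Between treatments, IgG RIT and TBI, whose Erfe levels had entered the choice of genes, differed by 0.15 (SE 1.10, edgeR adjusted p = 0.958). The sign turned to -0.15 without scaling factors and to -0.17 without IgG RIT replicate 3. CD45 RIT differed from TBI by -1.65 (adjusted p = 0.354) and from IgG RIT by -1.80 (adjusted p = 0.35), and passed against both only without replicate 1, which leaves the library at 0. The Erfe locus (chr1:91366430-91374217) overlaps Ilkap on the opposite strand, and whether the counting used strand is not given in the sources used here; Ilkap stood at 170 to 200 CPM in untreated and 162 to 208 CPM in TBI libraries.

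Relative to the summed erythroid markers of the same library, Erfe was highest after TBI. It gave 0.0409 to 0.366 counts per 1000 erythroid marker counts in untreated libraries and 0.671 to 2.16 in TBI libraries, which did not overlap. In IgG RIT it gave 0.346 to 0.652, overlapping the untreated range, and in CD45 RIT 0.165 and 0. Globin transcripts take much of this sum, which the other ratios to erythroid markers share. Hba-a1 had 75253 to 142754 counts in untreated and 905292 to 1174956 in IgG RIT. Klf1 had 13040 to 17841 and 28269 to 34891, and Car1 34520 to 60857 and 8278 to 11433. Erfe had 19 to 118 and 1158 to 2142 counts, so the overlap holds for the sum and not for every marker in it. The erythroid marker score is the mean log2 CPM of the 19 erythroid markers in a library, not their sum. With this score as a covariate in the fit, the Erfe difference from untreated was 2.65 for TBI and 1.54 for IgG RIT on the log2 scale. The slope on the score was fitted over all libraries, among them CD45 RIT replicate 2, with Erfe at 0 counts. The part of that library in these 2 differences was not tested.

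**Figure D1:**
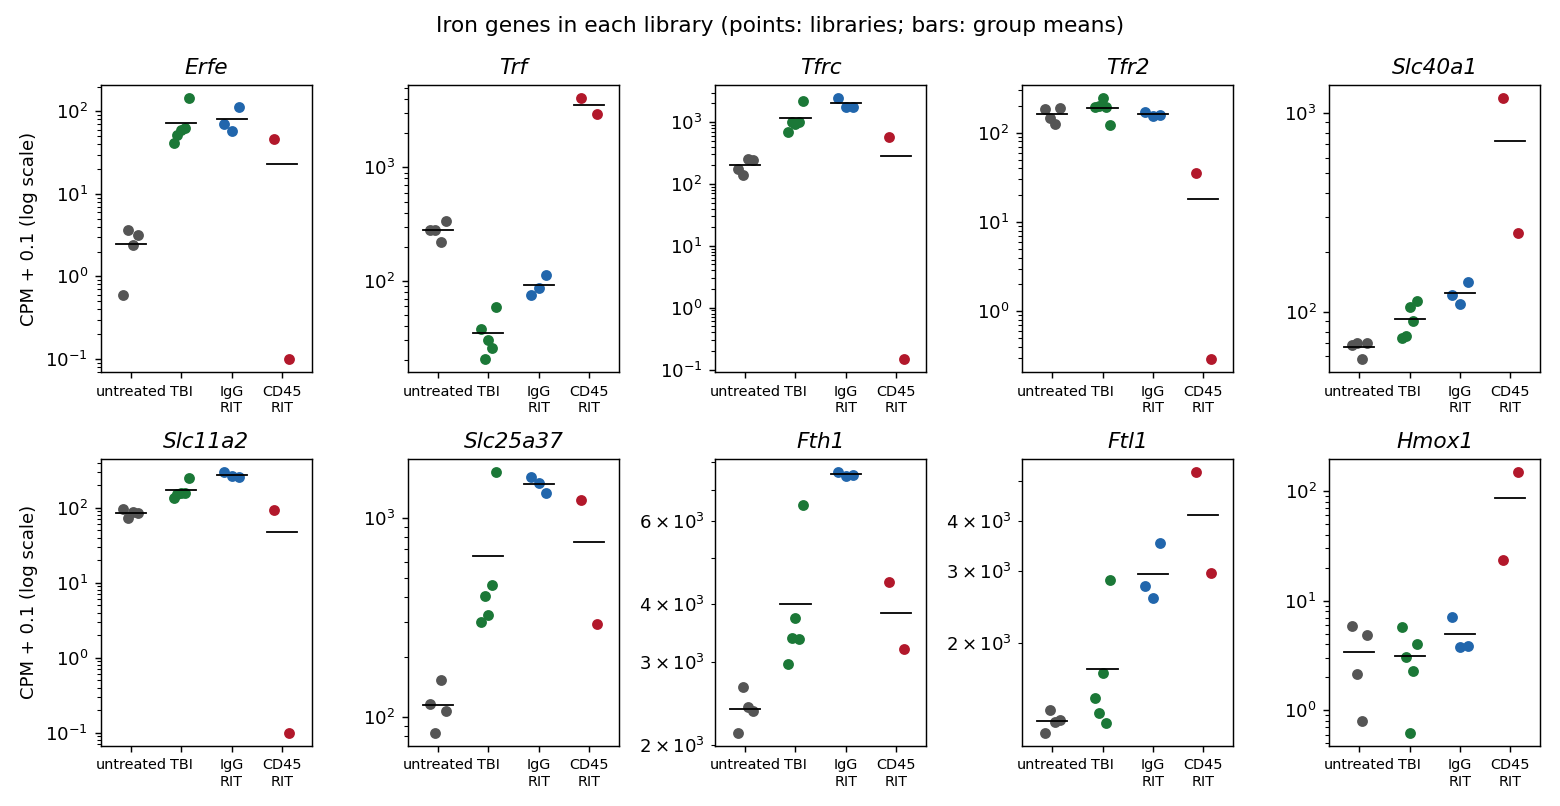
Levels of the 10 genes in each library, as CPM plus 0.1 on log axes, with 1 panel per gene and 1 column of points per group; bars are group means. Erfe points of TBI and IgG RIT lie at 40.8 CPM or more, above all untreated points (at most 3.53), and Trf runs from 20.5 CPM in TBI to 4074 CPM in CD45 RIT.

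Trf, the plasma iron carrier, ran the other way after TBI and IgG RIT and was very abundant after CD45 RIT. It was at 281, 283, 220 and 340 CPM in untreated replicates 1 to 4. In TBI replicates 1, 3, 4, 5 and 6 it was at 37.8, 20.5, 30.04, 25.8 and 58.7 CPM, and in IgG RIT at 75.5, 87.2 and 113 CPM. None of these 4 groups of values overlapped another once the CD45 RIT libraries, at 4074 and 2958 CPM, were added. By mean level Trf ranked 439 among the 55335 genes in untreated, 5278 in TBI, 2334 in IgG RIT and 28 in CD45 RIT. Its fitted log2 difference from untreated was -3.02 for TBI, -1.61 for IgG RIT and 3.65 for CD45 RIT.

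Trf was also compared between treatments. Its low levels in TBI and IgG RIT had entered the choice of genes and are 1 side of these comparisons. Their p-values are therefore not free of that choice. Trf was 6.67 log2 units higher in CD45 RIT than in TBI (SE 0.353, edgeR adjusted p = 3.08e-07) and 5.26 higher than in IgG RIT (SE 0.414, adjusted p = 5.41e-06), in 2 of 2 CD45 RIT libraries. Both calls held in each of the 14 fits that left out 1 library, with differences of 6.41 to 6.95 and 5.00 to 5.43. The difference of 1.41 between IgG RIT and TBI (SE 0.294) had an adjusted p of 0.0657, although the 3 IgG RIT libraries lay above the 5 TBI libraries. It passed without TBI replicate 6 (1.69, adjusted p = 0.00255), without CD45 RIT replicate 1 (1.41, adjusted p = 0.0218) and without CD45 RIT replicate 2 (1.47, adjusted p = 0.024). The stromal markers moved with Trf. Per 1000 stromal marker counts, Trf gave 39.6 to 79.9 counts in untreated and 14.9 to 42.5 in TBI. It gave 49.2 to 192 in IgG RIT, and 85.7 and 40.8 in CD45 RIT replicates 1 and 2. On that scale the CD45 RIT libraries overlapped the untreated range. With the erythroid marker score as a covariate the Trf differences from untreated were -3.19, -1.86 and 3.80 for TBI, IgG RIT and CD45 RIT.

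Tfrc, the receptor that brings transferrin-bound iron into the cell, was at 176, 137, 248 and 242 CPM in untreated libraries. It was at 687, 996, 920, 986 and 2156 CPM in TBI replicates 1, 3, 4, 5 and 6 and at 2448, 1761 and 1781 CPM in IgG RIT. All libraries of both groups lay above the untreated libraries, with log2 differences of 2.52 and 3.31. CD45 RIT replicate 1 had 572 CPM (9387 counts) and replicate 2 had 1 count. Between treatments, Tfrc differed by 0.80 log2 units between IgG RIT and TBI (SE 1.13, edgeR adjusted p = 0.74). The differences of CD45 RIT, fitted means of 2 unlike libraries, were -2.01 from TBI (adjusted p = 0.291) and -2.80 from IgG RIT (adjusted p = 0.186). Without CD45 RIT replicate 2 the Tfrc difference from IgG RIT was -2.03 and passed the threshold (adjusted p = 0.0311); without replicate 1 the remaining library was under the floor, and Tfrc passed against both treatments.

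Tfr2, the second transferrin receptor, which senses iron-loaded transferrin and partners the erythropoietin receptor in erythroblasts, did not follow Tfrc. It was at 184, 145, 124 and 190 CPM in untreated, at 194, 198, 245, 195 and 122 CPM in TBI and at 169, 156 and 156 CPM in IgG RIT, and these groups overlapped. In CD45 RIT it was at 35.5 CPM (583 counts) and 0.192 CPM (4 counts), below every other library. Tfr2 fell by 3.42 log2 units from TBI to CD45 RIT (SE 1.14, adjusted p = 0.0319) and was lower by 3.17 than in IgG RIT (-3.17, SE 1.16, adjusted p = 0.0473). The first call was lost without TBI replicate 4 (-3.31, adjusted p = 0.0519). The second was lost when any 1 library of the untreated, TBI or IgG RIT groups was left out (adjusted p = 0.0551 to 0.077). It held without CD45 RIT replicate 2 (-2.40, adjusted p = 0.000233). IgG RIT and TBI differed by -0.25 (SE 0.810, adjusted p = 0.898).

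The balance of the receptors therefore changed within libraries. Per length of the gene model, the ratio of Tfrc to Tfr2 was 0.664 to 1.40 in untreated libraries, 2.48 to 3.55 in TBI replicates 1, 3, 4 and 5, 12.3 in TBI replicate 6 and 7.94 to 10.2 in IgG RIT. In CD45 RIT it was 11.3 in replicate 1, and 0.175 in replicate 2, where both receptors had 4 counts or fewer. Erythroid markers moved with this ratio: they were highest in TBI replicate 6, IgG RIT and CD45 RIT replicate 1, where the ratio was 7.94 or more. Per 1000 erythroid marker counts, Tfrc gave 14.2 to 20.5 counts in untreated, 9.96 to 33.3 in TBI, 10.3 to 12.9 in IgG RIT and at most 2.06 in CD45 RIT. Tfr2 gave 8.23 to 16.1, 0.566 to 8.86, 0.888 to 0.934 and at most 0.128 in the same order. With the erythroid score as a covariate, the Tfrc difference from untreated was -0.09 for TBI and -1.02 for IgG RIT, against 2.52 and 3.31 without it. The slope on the score was fitted over all libraries. Among them is CD45 RIT replicate 2, with Tfrc at 1 count and 6 of 19 erythroid markers at 3 counts or fewer. The part of that library in these values was not tested.

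**Figure D2:**
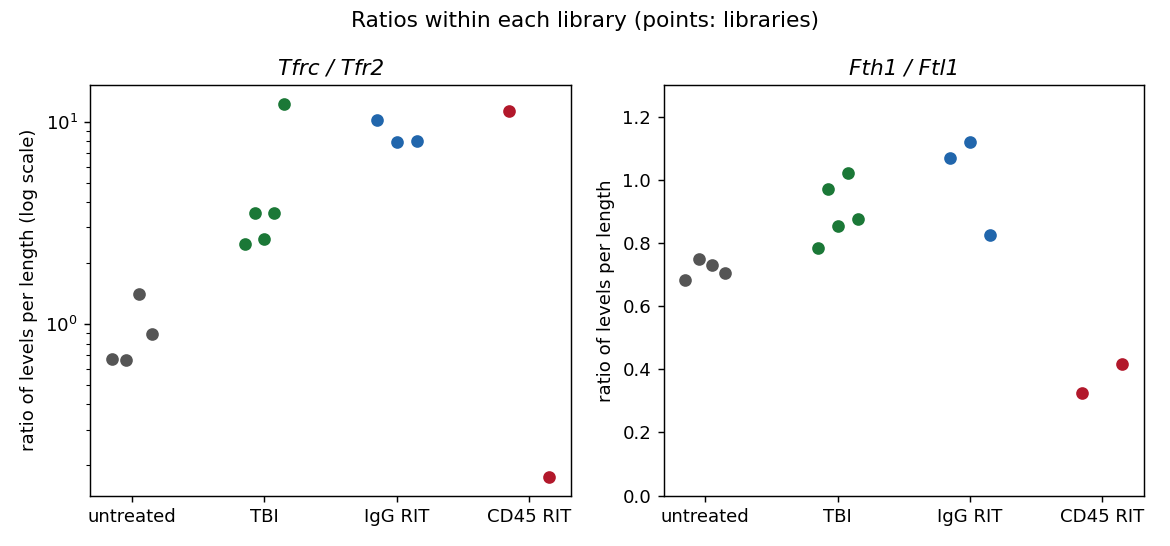
Ratio of Tfrc to Tfr2 (left, log axis) and of Fth1 to Ftl1 (right, linear axis) per length of the gene model in each library. Points are libraries, in columns by group. The receptor ratio lies at 0.664 to 1.40 in untreated libraries and at 7.94 or more in IgG RIT, and the ferritin ratio is lowest in the CD45 RIT libraries, at 0.325 and 0.417.

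Slc11a2, the transporter DMT1 that moves iron out of the endosome, was at 97.5, 73.5, 86.6 and 86.2 CPM in untreated libraries. It was at 133, 154, 158, 159 and 250 CPM in TBI replicates 1, 3, 4, 5 and 6, and at 302, 267 and 258 CPM in IgG RIT, and these 3 groups did not overlap. The log2 differences from untreated were 0.99 and 1.68. CD45 RIT had 94.6 CPM (1553 counts) in replicate 1, within the untreated range, and 0 counts in replicate 2. No treatment contrast of Slc11a2 passed the threshold: the adjusted p was 0.745 for IgG RIT against TBI, 0.264 for CD45 RIT against TBI and 0.169 for CD45 RIT against IgG RIT. Without CD45 RIT replicate 2 both CD45 RIT contrasts passed (-1.01, adjusted p = 0.0496, and -1.77, adjusted p = 0.00482); without replicate 1 they also passed, against a library at 0, and so did IgG RIT against TBI (0.69, adjusted p = 0.0412).

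Slc25a37, mitoferrin-1 of the inner mitochondrial membrane, was at 116, 83.0, 153 and 107 CPM in untreated libraries. It was at 298, 406, 326, 461 and 1709 CPM in TBI replicates 1, 3, 4, 5 and 6, at 1604, 1499 and 1337 CPM in IgG RIT, and at 1227 and 293 CPM in CD45 RIT. Every treated library lay above every untreated library, and TBI replicate 6 lay with IgG RIT rather than with the other TBI libraries. The log2 differences from untreated were 2.48, 3.69 and 2.73; without TBI replicate 6 the first was 1.70. Unlike Tfrc and Slc11a2, Slc25a37 was well detected in CD45 RIT replicate 2, with 6100 counts.

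Measured against the erythroid markers, Slc25a37 kept to a narrow range in the first 3 groups. It gave 8.62 to 10.2 counts per 1000 erythroid marker counts in untreated, 7.90 to 11.8 in TBI and 7.75 to 9.00 in IgG RIT, although its CPM spanned 83.0 to 1709 over these 12 libraries. In CD45 RIT replicates 1 and 2 it gave 4.43 and 4.80, below all others. No treatment contrast of Slc25a37 passed the threshold in the fit of all libraries: IgG RIT was 1.21 log2 units above TBI (adjusted p = 0.276), and CD45 RIT was 0.96 below IgG RIT (-0.96, adjusted p = 0.323). The first passed without TBI replicate 6 (1.99, adjusted p = 0.0101) and the second without CD45 RIT replicate 1 (-2.34, adjusted p = 0.0496). CD45 RIT differed from TBI by 0.25 (adjusted p = 0.776), and this difference turned to -0.22 without scaling factors and to -1.13 without CD45 RIT replicate 1.

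**Figure D3:**
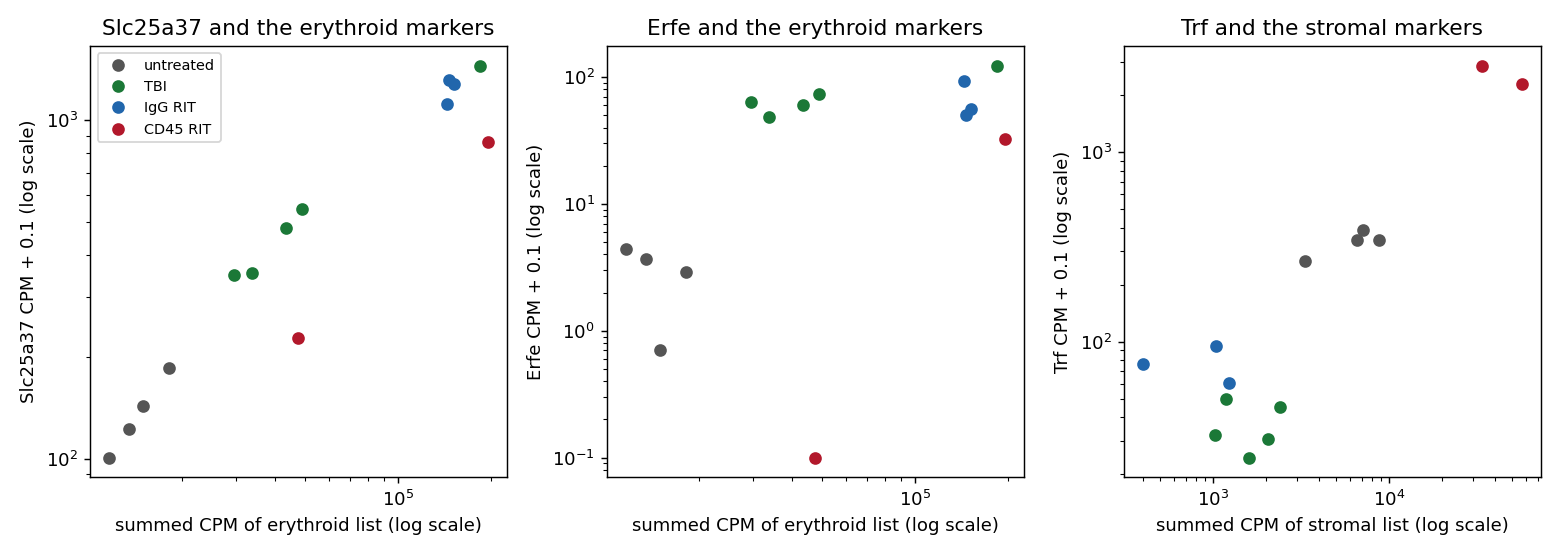
Levels of Slc25a37 (left) and Erfe (middle) against the summed level of the erythroid markers, and of Trf (right) against that of the stromal markers, each point 1 library and both axes logarithmic in CPM of the total count (0.1 added to the vertical axis). Slc25a37 is higher where the erythroid sum is higher in the first 3 groups, Erfe of TBI libraries lies above untreated at a higher sum, and Trf is highest in the CD45 RIT libraries, where the stromal sum is 33460 and 56320 CPM.

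Fth1, the ferritin heavy chain that oxidises iron for storage, was the most abundant member by CPM before treatment, at 2123, 2657, 2409 and 2365 CPM in untreated libraries, and ranked 9 of all genes by mean CPM. It was at 2980, 3384, 3719, 3359 and 6496 CPM in TBI replicates 1, 3, 4, 5 and 6, at 7638, 7488 and 7519 CPM in IgG RIT, and at 4445 and 3204 CPM in CD45 RIT. IgG RIT libraries lay above all others and closest to each other, with a mean of 7550 ± 79 CPM (SD, n = 3). The log2 differences from untreated were 0.74, 1.66 and 0.68; without scaling factors the last was -0.03.

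Between treatments Fth1 was lower in CD45 RIT than in IgG RIT, by 0.98 log2 units (-0.98, SE 0.303, adjusted p = 0.0235). This call was lost without CD45 RIT replicate 2 (-0.99, adjusted p = 0.102). Fth1 was 0.92 higher in IgG RIT than in TBI with an adjusted p of 0.0857, and this passed without TBI replicate 6 (1.17, adjusted p = 0.00106), without CD45 RIT replicate 1 (0.92, adjusted p = 0.0306) and without CD45 RIT replicate 2 (0.98, adjusted p = 0.0399). CD45 RIT and TBI differed by -0.06 (SE 0.270, adjusted p = 0.874), a difference that was 0.044 with RLE factors and 0.19 without TBI replicate 6, and that passed the threshold on the lower side without scaling factors (-0.58, adjusted p = 0.024).

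Ftl1, the ferritin light chain that helps form the iron core, was at 1202, 1368, 1276 and 1295 CPM in untreated libraries. It was at 1466, 1348, 1687, 1268 and 2860 CPM in TBI replicates 1, 3, 4, 5 and 6, at 2766, 2583 and 3526 CPM in IgG RIT, and at 5275 and 2970 CPM in CD45 RIT. TBI overlapped untreated, and the RIT libraries lay above all untreated libraries. Ftl1 was 1.26 log2 units higher in CD45 RIT than in TBI (SE 0.294, adjusted p = 0.00532), and this call was lost without CD45 RIT replicate 1 (0.78, adjusted p = 0.0745). The difference of 0.78 between IgG RIT and TBI had an adjusted p of 0.156, and it passed without TBI replicate 6 (1.04, adjusted p = 0.0078). CD45 RIT and IgG RIT differed by 0.48 (SE 0.334, adjusted p = 0.269), by 0.0013 without CD45 RIT replicate 1 (adjusted p = 1), and by 1.08 with the erythroid score as a covariate, past the threshold (adjusted p = 0.0386). The Ftl1 locus (chr7:45457944-45459884) overlaps the predicted gene Gm10252, counted at 925 to 2380 CPM over the 14 libraries, and both ferritin genes have near-identical copies in the genome, so their counts depend on how shared reads were assigned.

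Heavy and light chain were thus in different proportion. Per length of the gene model (3469 bases for Fth1, 1340 for Ftl1), the ratio of Fth1 to Ftl1 was 0.682 to 0.75 in untreated, 0.785 to 1.02 in TBI, 0.824 to 1.12 in IgG RIT, and 0.325 and 0.417 in CD45 RIT. Whether a ratio lies above or below 1 depends on these lengths, which may differ from those of the mRNAs. The order of the libraries does not depend on them. Untreated libraries lay below all TBI and IgG RIT libraries and above both CD45 RIT libraries. Together the ferritin genes took 0.409% to 0.488% of counts in untreated, 0.527% to 0.794% in TBI, 0.83% to 0.922% in IgG RIT, and 0.684% and 0.479% in CD45 RIT. These shares did not overlap between untreated, TBI and IgG RIT.

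Slc40a1, ferroportin, the iron exporter of macrophages and gut cells that erythroblasts also make, was at 68.3, 69.9, 58.1 and 70.0 CPM in untreated libraries. It was at 74.6, 75.5, 107, 90.5 and 114 CPM in TBI, at 123, 110 and 142 CPM in IgG RIT, and at 1195 and 251 CPM in CD45 RIT. Each treated library exceeded each untreated library. Slc40a1 was 2.97 log2 units higher in CD45 RIT than in TBI (SE 0.384, adjusted p = 8.92e-05) and 2.54 higher than in IgG RIT (SE 0.449, adjusted p = 0.00103), in 2 of 2 libraries. Replicate 1 carried much of this: without it the differences were 1.44 (adjusted p = 0.000173) and 1.01 (adjusted p = 0.00476), still past the threshold. IgG RIT and TBI differed by 0.43 (SE 0.355, adjusted p = 0.538). The 15 macrophage markers summed to 79.8 to 88.6 CPM in untreated, 15.4 to 27.9 in TBI, 8.24 to 21.1 in IgG RIT, and 81.7 and 195 in CD45 RIT, with Adgre1 (F4/80) at 0 counts in all RIT libraries and Vsig4 at 0 in all libraries. The listed macrophage markers did not move together. Csf1r had 1154 to 1935 counts in untreated and 43 to 60 in CD45 RIT. C1qb had 0 to 37 and 303 to 1173, and Axl 86 to 217 and 536 to 903. Similar sums can therefore hold unlike mixtures of these markers, and their part in the Slc40a1 level was not tested. Per 1000 erythroid marker counts Slc40a1 gave 3.86 to 7.26 in untreated, 0.529 to 3.86 in TBI and 0.646 to 0.82 in IgG RIT. In CD45 RIT replicates 1 and 2 it gave 4.32 and 4.12.

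Hmox1, haem oxygenase 1, which releases iron from haem, was at 5.73, 2.06, 0.701 and 4.78 CPM in untreated, at 5.66, 2.94, 0.525, 2.20 and 3.95 CPM in TBI and at 7.06, 3.68 and 3.78 CPM in IgG RIT, and these groups overlapped. In CD45 RIT it was at 23.3 and 150 CPM (383 and 3125 counts), above every other library. Hmox1 was 4.83 log2 units higher than in TBI (SE 0.873, adjusted p = 0.00105) and 4.16 higher than in IgG RIT (SE 1.04, adjusted p = 0.00833). Without replicate 2 the differences were 2.76 (adjusted p = 0.0342) and 2.04 (adjusted p = 0.153), so the second call was lost. IgG RIT and TBI differed by 0.66 (SE 0.784, adjusted p = 0.681). The macrophage and stromal marker sums were also highest in replicate 2. Per 1000 stromal marker counts Hmox1 gave 0.254 to 0.807 in untreated and 0.552 to 2.86 in TBI. In IgG RIT it gave 3.04 to 8.09, and in CD45 RIT 0.491 and 2.07.

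Compared per length (RPKM, CPM divided by the length of the gene model in kilobases), the order of the members before treatment was Ftl1, Fth1, Trf, Tfr2, Tfrc, Slc25a37, Slc11a2, Slc40a1, Hmox1 and Erfe. Ftl1 was at 959 ± 51 RPKM (SD, n = 4) and Erfe at 0.839 ± 0.477 RPKM, and the neighbours Tfr2 and Tfrc did not differ beyond their spread, nor did Hmox1 and Erfe. In CD45 RIT, Trf had a mean of 1060 RPKM, near that of Fth1 in the same libraries.

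**Figure D4:**
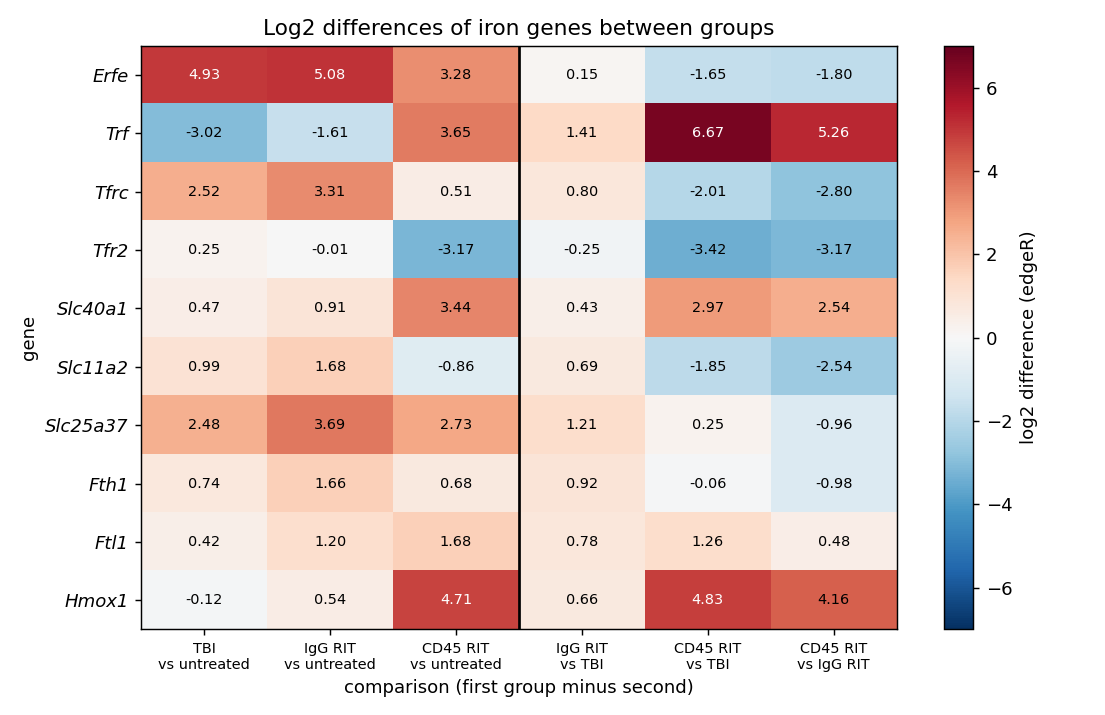
Log2 differences of the 10 genes (rows) in the 6 comparisons (columns, first group minus second), with the edgeR value printed in each cell; red is higher and blue lower in the first group, and the vertical line sets the comparisons against untreated, used to choose the genes, apart from those between treatments. Trf changes from -3.02 in TBI to 3.65 in CD45 RIT, and Tfr2 stays within 0.25 of 0 in TBI and IgG RIT.

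Counted over the members, edgeR called 2 higher and 1 lower in TBI against untreated, where 4.31% of all tested genes were called, 0.921% higher and 3.38% lower. In IgG RIT against untreated 4 were higher and 1 lower, beside 16.4% of all genes, 5.75% higher and 10.7% lower. In CD45 RIT against untreated 5 were higher and 1 lower, beside 33.1%, 14.5% higher and 18.6% lower. As these comparisons share the untreated libraries and were used in choosing the genes, nothing is read from these counts. The TBI count was 1 without any 1 of untreated replicates 1 to 4 or TBI replicate 5, where 2% to 2.84% of all genes were called. Both the TBI and the IgG RIT count rose without either CD45 RIT library. The share of all genes called rose in those fits as well, and they leave 1 library in the CD45 RIT group. The libraries of 7 members did not overlap between TBI and untreated, nor those of 8 between IgG RIT and untreated and 7 between CD45 RIT and untreated; over all tested genes the shares were 19.1%, 43.1% and 47.3%. The median log2 difference of the members was 0.605, 1.43 and 2.21 in the 3 treatments, and that of all tested genes -0.163, -0.42 and -0.369.

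Between treatments, edgeR called 0 members in IgG RIT against TBI, beside 0.242% of all genes, 0.0697% higher and 0.172% lower. At an unadjusted edgeR p under 0.05 stood 3 (Trf, Fth1, Ftl1). The share of all genes at that level was not counted, so nothing is read from the 3. DESeq2 called 2 (Trf, Fth1), beside 10.8% of all genes. Without TBI replicate 6, 4 were called higher, beside 9.44% of all genes in that fit, and without CD45 RIT replicates 1 and 2 in turn, 3 and 2, beside 9.08% and 8.05%. CD45 RIT against TBI gave 4 higher (Trf, Slc40a1, Ftl1, Hmox1) and 1 lower (Tfr2), beside 38.6%, 19.6% higher and 19% lower. CD45 RIT against IgG RIT gave 3 higher (Trf, Slc40a1, Hmox1) and 2 lower (Tfr2, Fth1), beside 37.7%, 20.2% higher and 17.5% lower; without CD45 RIT replicate 1 the count was 9, beside 51.2% of all genes in that fit. The counts of 5 in the fits of all libraries stand close to their backgrounds. Both include Trf, whose low levels in TBI and IgG RIT had entered the choice of genes. The groups did not overlap for 3, 7 and 9 members in the 3 comparisons, beside 16.8%, 45.8% and 51.3% of all genes. The members' median differences were 0.734, 0.0952 and -0.97, and those of all tested genes -0.163, -0.385 and -0.128.

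The rest of iron biology was followed in 61 further genes, of which 56 were tested; Hamp, the gene of hepcidin, Hamp2, Hephl1, Hjv and Bdh2 did not pass the filter. In TBI against untreated 2 were called higher and 5 lower, beside 0.921% and 3.38% of all genes. Higher were the zinc and iron importer Slc39a8 (1.53, SE 0.284, edgeR adjusted p = 0.0126) and the porphyrin exporter Abcg2 (1.94, adjusted p = 0.0361). Lower were the haemopexin receptor Lrp1 (-2.63, adjusted p = 0.023), the lipocalin receptor Slc22a17 (-2.59, adjusted p = 0.00715) and the hepcidin inducer Bmp6 (-2.58, adjusted p = 0.0294), beside Cp and Hfe. The calls of Abcg2, Lrp1 and Bmp6 were lost without several single libraries: Abcg2 without any untreated library or TBI replicates 3, 4 or 5 (adjusted p up to 0.115), Lrp1 without untreated replicates 1 or 2 or TBI replicates 3, 4 or 5 (up to 0.0777), and Bmp6 without untreated replicates 2, 3 or 4 or TBI replicates 1, 3, 4 or 5 (up to 0.0807). The list count of 7 was 2 without untreated replicate 2, where 2% of all genes were called. It was 4 without untreated replicate 1 or TBI replicate 4 (2.46% and 2.49%) and 3 without TBI replicates 3 or 5 (2.51% and 2.17%). It rose without either CD45 RIT library, as did the share of all genes, in fits that leave 1 library in that group. The list's median difference was -0.0186.

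In IgG RIT against untreated 13 of the 56 were higher and 7 lower (16.4% of all genes called). Of 16 iron-sulphur cluster assembly genes, 6 rose and 3 fell: Isca1, a late-acting scaffold protein, was higher by 2.40 log2 units (SE 0.444, adjusted p = 0.00534), and the ferredoxin Fdx1 was lower (-2.40, SE 0.387, adjusted p = 0.00301). Of 14 haem transport and breakdown genes, 4 rose and 2 fell, led by Abcg2 (2.81, adjusted p = 0.00511) and the mitochondrial transporter Abcb10 (2.73, adjusted p = 0.0374). Slc22a17 (-2.05, adjusted p = 0.0215) and the ferroxidase Cp (-1.78, adjusted p = 0.0433) were lower. The Abcb10 call was lost in 10 of 14 fits without 1 library, those without any untreated or IgG RIT library or TBI replicates 3, 4 or 5 (adjusted p up to 0.0951). The Cp call was lost in 9, those without any untreated or IgG RIT library or TBI replicates 1 or 4 (up to 0.137), and the Slc22a17 call without IgG RIT replicates 2 (-1.69, adjusted p = 0.0751) or 3 (-2.13, adjusted p = 0.0534). The list count of 20 was 13 without IgG RIT replicate 1 (8.29% of all genes called) and 11 without IgG RIT replicate 2 (8.89%). It rose without either CD45 RIT library, as did the share of all genes. IgG RIT against TBI gave 0 calls in the list by edgeR (0.242% of all genes), with 15 at an unadjusted p under 0.05. The share of all genes at that unadjusted level was not counted, so nothing is read from the 15. DESeq2 called 8 (10.8% of all genes). Without TBI replicate 6 the edgeR count was 15 (9.44%). It also rose, with the share of all genes, without either CD45 RIT library.

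After CD45 RIT 16 of the 56 were higher and 11 lower than in untreated (33.1% of all genes called), 19 and 11 against TBI (38.6%), and 19 and 16 against IgG RIT (37.7%). In the group of export, oxidation and hepcidin axis, 6 of 7 tested genes rose in each of the 3 comparisons and none fell. The ferroxidase Cp, at 543 and 1152 CPM, was 5.89 log2 units above IgG RIT (SE 0.694, adjusted p = 6.66e-05), and Heph, with 0 counts in all IgG RIT libraries, was at least 485-fold higher in CD45 RIT. The ferrireductase Steap4 was 4.68 above untreated (adjusted p = 1.52e-05), Lrp1 4.5 (adjusted p = 0.000645) and Slc22a17 4.44 (adjusted p = 0.000119), and Bmp6 was 6.50 above TBI (SE 0.723, adjusted p = 2.86e-05). The erythroid ferrireductase Steap3 was lower than in untreated (-4.08, adjusted p = 0.0161), TBI (-5.12, adjusted p = 0.00502) and IgG RIT (-5.07, adjusted p = 0.00627), with 4.63 CPM in replicate 1 and 0 in replicate 2. Slc39a8 had 0 counts in both CD45 RIT libraries, at least 123-fold lower than in untreated, 356-fold lower than in TBI and 266-fold lower than in IgG RIT. The haem exporter Flvcr1 was lower than in untreated (-4.91, adjusted p = 0.0138) and in TBI (-4.99, adjusted p = 0.0104). Flvcr1 had 0 counts in replicate 1 and 30 in replicate 2, so its fitted value, like that of Steap3, averages a low library with a library at 0. The Steap3 and Flvcr1 calls held in each of the 14 fits without 1 library. The stromal sum was 33500 and 56300 CPM in these libraries, above every other library, and its part in the higher group was not tested.

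Erfe responds to erythropoietin through its receptor, so the 7 genes of that pathway followed here were read beside it. Cish, a feedback inhibitor and STAT5 target, was at 4.58 to 13.5 CPM in untreated, 39.4 to 132 in TBI, 55.9 to 86.3 in IgG RIT, and 100 and 69.1 in CD45 RIT. It was higher than in untreated by 2.93 (SE 0.441, edgeR adjusted p = 0.00376), 2.98 (SE 0.468, adjusted p = 0.00285) and 3.32 log2 units (SE 0.501, adjusted p = 0.000473), and CD45 RIT replicate 2, without Erfe counts, shared in this. Epor, the receptor, was higher in IgG RIT (2.22, SE 0.441, adjusted p = 0.007), 1.24 above untreated in TBI (adjusted p = 0.103), and lower in CD45 RIT than in IgG RIT (-1.95, adjusted p = 0.0171). Socs3, a feedback inhibitor shared by many cytokine receptors, was 4.16 higher in CD45 RIT than in untreated (SE 0.601, adjusted p = 0.000346). The erythroid factor Gata1 had 67.4 CPM in 1 CD45 RIT library and 0 counts in the other, and was lower than in IgG RIT (-4.17, adjusted p = 0.043), a call lost without any 1 library of the other groups (adjusted p = 0.0501 to 0.0691). Stat5a was 2.58 higher in CD45 RIT than in IgG RIT (adjusted p = 0.0129), but not past the threshold without CD45 RIT replicate 2 (0.88, adjusted p = 0.321). Jak2 and Stat5b were called in no comparison.

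The genes whose log2 CPM ran most like that of Erfe over the 14 libraries, among 8142 candidates, were Nacad (Pearson r = 0.97), Plek2 (0.955), Apeh (0.949), Cpox (0.948) and Acer3 (0.948). For Trf they were Foxc1 (0.99), Cxcl12 (0.989), Chrdl1 (0.988), Esm1 (0.986) and Ghr (0.986). Over the 12 libraries without CD45 RIT these correlations were 0.921 to 0.948 for Erfe and 0.963 to 0.969 for Trf. Plek2 and Cpox are erythroid genes, the latter an enzyme of haem synthesis, while Foxc1 and Cxcl12 belong to the stromal marker list. The libraries share their groups, depth and mixture of cells, so these values describe the libraries and carry no test.

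The libraries bear numbers in their labels, 1 to 9 for untreated and TBI replicates 1, 3, 4 and 5 and 10 to 16 for every RIT library and TBI replicate 6, and what the numbers stand for is not given. Number and treatment cannot be told apart for RIT against untreated. Among the TBI libraries only replicate 6 has an upper number, 10. In fits without TBI replicate 6, number and treatment therefore cannot be told apart for RIT against TBI either. As a description, among the libraries numbered up to 9 the TBI libraries had Erfe at 40.8 to 62.4 CPM, Trf at 20.5 to 37.8 CPM and Slc25a37 at 298 to 461 CPM. Within the upper numbers, IgG RIT has 11 to 13 and CD45 RIT 15 and 16. Number and treatment therefore cannot be told apart for their differences in Trf, Slc40a1, Hmox1, Tfr2 and Fth1 either.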

How the data were processed

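RNA of sorted marrow cells was extracted with a Qiagen micro kit and made into SMART-Seq v4 and Nextera XT libraries, per the labels' protocols. The authors deposited raw counts per gene for 55335 genes in 14 libraries, with gene coordinates and a gene length (in bases; per the file headers), which was used for RPKM. STAR 2.7.7a, FastQC 0.11.9, edgeR 3.36.0 and the build hg38 are listed in the submitters' processing notes; the counter, strand setting and handling of shared reads are not given in the sources used here. Of the gene IDs, 54587 are in GENCODE M21 and 54587 of these have the same coordinates, so coordinates are on GRCm38. Sample columns left unused: 0.

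The test used edgeR 4.0.16 under R 4.3.3: filterByExpr (minimum count 10, total 15), TMM factors, 1 robust quasi-likelihood fit of 4 groups over 14 libraries, 6 contrasts, Benjamini-Hochberg adjustment over 21509 genes, threshold 0.05. SE is the log2 difference over the square root of F. DESeq2 1.42.0, RLE or no factors, no filter, an erythroid score covariate, a replicate block and leaving out each library were alternatives. On simulated counts of 21509 genes the steps recovered 43% of 4-fold and 87% of 32-fold changes in TBI against untreated (3 false calls), and 23% and 70% in CD45 RIT against untreated (5 false calls).

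Members and lists were chosen with earlier results of these data known. Named genes were the members, in each contrast up to 3 list genes with the largest rise and up to 3 with the largest fall among called genes whose groups did not overlap and whose mean log2 CPM was 1 or more, the erythropoietin receptor genes, the sort markers, and the 5 genes most correlated with Erfe and Trf (log2 CPM, prior count 2, mean at least 3, predicted genes and pseudogenes left out). Heph, Hamp, Ilkap, Gm10252, Klf1, Alas2, Adgre1, Vsig4, Csf1r, C1qb and Axl were named after their values were seen. Some items covered by the rule are not reported here. Of the sort markers, Pecam1 had 894 to 1957 counts in untreated, 44 to 820 in TBI, 72 to 171 in IgG RIT and 4 to 6 in CD45 RIT libraries, and Ptprc (CD45) 1578 to 3273, 71 to 1424, 78 to 286 and 1 to 662. The summed CPM of 12 blood progenitor markers was 11400 to 14300, 122 to 1610, 646 to 886, and 88.2 to 136 in these groups, that of 10 neutrophil markers 19.0 to 71.5, 26.1 to 55.5, 19.1 to 206 and 0.815 to 182, and that of 6 hepatocyte markers at most 1.65 in any library. No pair of libraries agreed within counting noise (the closest had a chi-square per gene of 16.3).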

Additional observations from a re-analysis of the deposited data

Results flagged for a closer look

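Among the 20 groups of 4 or 5 libraries checked for a sample far from the others (10 genes in untreated and TBI), 7 were marked. All but 1 of these marks fell on the same library. The genes share their libraries, so the checks are not independent and no chance rate is set beside the count. TBI replicate 6 stood apart with Erfe at 145 CPM, Tfrc at 2156 CPM, Slc11a2 at 250 CPM (249.7), Slc25a37 at 1709 CPM, Fth1 at 6496 CPM and Ftl1 at 2860 CPM, each above the other 4 TBI libraries. Its erythroid marker sum was 183700 CPM, against at most 49150 CPM in those, and its Tfr2 (122 CPM) was the lowest of the TBI libraries. Untreated replicate 3 stood below the other untreated libraries for Slc40a1, at 58.1 CPM against 68.3 to 70.0.

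Trf moved in opposite directions against untreated in CD45 RIT and in the other treatments. The differences were 6.67 log2 units against TBI and 5.26 against IgG RIT, both past the threshold by edgeR (adjusted p = 3.08e-07 and 5.41e-06). The low Trf levels of TBI and IgG RIT had entered the choice of genes. Tfr2 (-3.42, adjusted p = 0.0319) and Hmox1 (4.83, adjusted p = 0.00105) also differed between CD45 RIT and TBI with opposite signs against untreated; the TBI values themselves, 0.25 and -0.12, came from groups that overlapped. The stromal marker sum was 33500 and 56300 CPM in CD45 RIT and at most 8740 CPM elsewhere, and its part in the Trf difference was not tested beyond the ratio to that sum.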

How the results depend on the processing

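Trf and Slc40a1 were called higher in CD45 RIT than in TBI and IgG RIT under every alternative run. For Trf the low levels in TBI and IgG RIT had entered the choice of genes, so its calls are not free of that choice. Same-numbered libraries did not deviate together (13 pairs, r -0.0896 to 0.139, 1 over 0.1; 3 of 12 libraries correlated best with their own number), so the numbers were not treated as pairs. With the replicate block, called members numbered 1 in TBI against untreated and 3 in CD45 RIT against TBI and against IgG RIT (adjusted p = 0.138 and 0.121 for Tfr2, 0.102 and 0.107 for Hmox1), and called list genes 1 in TBI and 16 in CD45 RIT against untreated, 14 in CD45 RIT against TBI and 22 against IgG RIT; the calls of Steap3 (adjusted p = 0.0558 to 0.102), Flvcr1 (0.0843 and 0.0927), Cish in TBI (0.108) and the 5 list genes named in TBI (0.113 to 0.384) were among those not made. With the block, 0.177% of all genes were called in TBI against untreated. In CD45 RIT the shares were 18.9% against untreated, 17.5% against TBI and 23.7% against IgG RIT. DESeq2 called 11 list genes in TBI against untreated (11.8% of all genes), and 2 members and 8 list genes in IgG RIT against TBI (10.8%). The erythroid covariate gave 11 list genes in TBI against untreated, 1 member and 3 list genes in IgG RIT against TBI and 3 members in CD45 RIT against IgG RIT (adjusted p for Tfr2 0.11, Hmox1 0.173, Fth1 0.284), 1 of them Ftl1 (1.08, adjusted p = 0.0386), gained like Tfrc against TBI (-1.40, adjusted p = 0.0276). With the covariate, 11.5% of all genes were called in TBI against untreated, 3.24% in IgG RIT against TBI and 32.1% in CD45 RIT against IgG RIT. No scaling gave 2 list genes in IgG RIT against TBI (0.944% of all genes). The share of all genes called also moved when 1 library was left out. In TBI against untreated it was lowest, at 2%, without untreated replicate 2 and highest without a CD45 RIT library. In IgG RIT against untreated the lowest share was 8.29%, without IgG RIT replicate 1. In CD45 RIT against untreated it was 27.6%, without untreated replicates 2 or 3. Both shares were highest without CD45 RIT replicate 1. The ranges given next have their upper ends in fits that leave 1 CD45 RIT library, except in IgG RIT against TBI. As the share of all genes also moved, nothing is read from these ranges. Leaving out 1 library at a time, members called ranged from 1 to 7, 4 to 8 and 5 to 8 (TBI, IgG RIT, CD45 RIT against untreated), 0 to 4 (IgG RIT against TBI), 4 to 7 and 4 to 9 (CD45 RIT against TBI and IgG RIT), and list genes from 2 to 17, 11 to 33, 22 to 37, 0 to 15, 28 to 40 and 29 to 42.

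Signs reversed for differences not called in the fit reported; Fth1 in CD45 RIT against TBI was called lower without scaling (-0.58, adjusted p = 0.024). In IgG RIT against TBI: Erfe -0.15 without scaling, -1.10 with the covariate and -0.17 (without IgG RIT replicate 3) to 0.58 leaving out libraries; Tfrc -0.93 and Slc11a2 -0.80 with the covariate; Tfr2 0.017 with the block. In CD45 RIT against TBI: Slc25a37 -0.22 without scaling and -1.13 (without CD45 RIT replicate 1) to 1.03 leaving out libraries; Fth1 0.044 with RLE factors and DESeq2, 0.25 with the block, 0.29 with the covariate and -0.32 to 0.19 (without TBI replicate 6) leaving out libraries. In CD45 RIT against IgG RIT, with the covariate, Erfe 0.17 and Slc25a37 0.54. The causes were not tested. Of 600 member differences between treatments under alternatives, 537 kept direction and side of the threshold, 23 lost and 25 gained a call. Without scaling the median of all genes against untreated moved from -0.163, -0.42 and -0.369 to -0.284, -0.939 and -1.08, and the share of calls that were higher from 21.4%, 35% and 43.8% to 17.1%, 14.5% and 22.7%; with RLE factors these shares were 29.2%, 46.7% and 52.8%. In IgG RIT and CD45 RIT against TBI the shares were 28.8% and 50.9%, and 11.3% and 33.6% without scaling.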

Other observations

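The CD45 RIT libraries differed from each other in which iron genes they held. Replicate 2 had 0 counts of Erfe and Slc11a2, 1 of Tfrc and 4 of Tfr2, at a total of 26823379 counts. It also had 61602 counts of Trf, 6100 of Slc25a37, 5235 of Slc40a1, 3125 of Hmox1 and 66720 of Fth1. Replicate 1 had 752, 1553, 9387 and 583 counts of the first set. Of 19 erythroid markers, 6 were at 3 counts or fewer in replicate 2 and none in replicate 1, and globin transcripts were abundant in both, with 492860 and 1236598 counts of Hba-a1 as the lower and higher value. Replicate 2 had counts for 17700 genes, the fewest of the 14 libraries.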
